A study of Mus musculus with 5 samples.

Results

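The mature migratory dendritic cell programme was followed as 32 genes, chosen by symbol from a list of genes of mature, migratory dendritic cells from which chemokines and NF-kB genes had been left out. All 32 symbols were among the 27678 in the table, and 31 had levels high enough to be tested. The cells were mouse dendritic cells grown from bone marrow in 20 ng/ml of GM-CSF and 5 ng/ml of IL-4 over 6 days. The comparison was between 2 Etv3+/+ and 3 Etv3-/- libraries. Cells of both genotypes were cultured alike and sorted as live singlets with CD11c, high MHC class II, an intermediate level of CD11b and no CD115. Etv3 is a DNA-binding factor of the ETS family. The sources used here do not state how its allele was disrupted, the strain or age of the mice, or whether the libraries of a genotype came from separate animals, so the tests reflect variation among these libraries, which may be technical.

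Dendritic cells that mature leave the tissue for the draining lymph node. As background, they bundle actin into dendrites, take up less antigen, display surface molecules that instruct T cells, and switch on a conserved set of genes whether maturation is spontaneous or driven by microbes. Part of that set is thought to restrain T cells, and the genes followed here cover its surface, cytoskeletal, signalling, membrane and metabolic components.

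Most genes of the programme had a lower fitted level in Etv3-/- cells, and no single gene passed the limma test. The fitted difference was below 0 for 26 of the 31 tested genes, against 53.7% of all 13813 genes tested, with TMM or quantile scaling leaving 24 below 0. The median log2 fold change was -0.57, against -0.06 over all genes tested. Of the 31 genes, 17 had all 3 Etv3-/- values below both Etv3+/+ values (19.3% of all genes tested) and 1, Cd83, had all 3 above (16.7%). With limma, 0 of 31 passed an adjusted p of 0.05 in either direction, where 0.319% of all genes passed lower and 0.876% higher. At an unadjusted p under 0.05, limma gave 15 genes lower (9.93% of all genes) and 0 higher (8.02%). edgeR on whole reads also called 0 of 31 (0.319% of all genes lower and 0.825% higher), with 13 lower (8.2%) and 1 higher (8.8%) at an unadjusted p under 0.05.

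The differences ran from -1.83 for Slco5a1 to 0.77 for H2-M2, so each was under 4-fold. In simulated data for this comparison, with 13356 genes, the test recovered 11.7% of 2-fold and 69.1% of 4-fold changes. The changed genes there were drawn from all with a mean of at least 50. The tested members were more abundant, with a median mean of 8623 against 1013 over all genes tested, so these shares are not specific to them. A missed call here does not show that a gene was equal in both genotypes. The sorted dendritic cells are a bulk sample, in which fewer mature cells and less RNA per cell cannot be told apart.

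**Figure D1:**
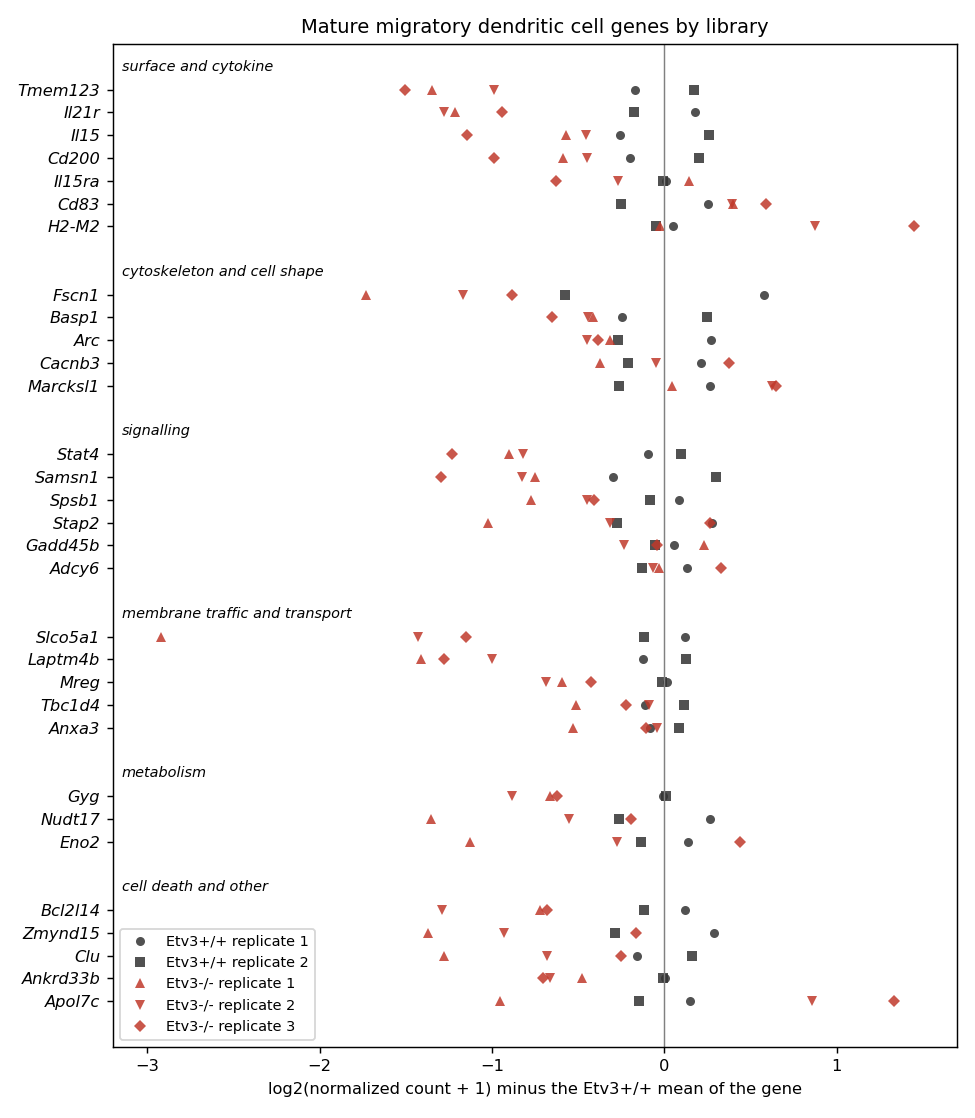
Level of each of the 31 tested genes in the 5 libraries, as log2(normalized count + 1) minus the gene's own Etv3+/+ mean on the horizontal axis, with genes grouped by role. Dark symbols are the 2 Etv3+/+ libraries and red symbols the 3 Etv3-/- libraries. For 17 genes every red symbol lies to the left of both dark ones, and for Cd83 every red symbol lies to the right.

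Depth was 42983550 to 68253936 reads per library, and mitochondrial genes took 1.98% and 6.64% of the Etv3+/+ and 1.1% to 3.17% of the Etv3-/- values. Etv3 itself (chromosome 3, 87525407 to 87540156) was at 23050 and 25447 normalized counts in Etv3+/+ and at 18691, 20416 and 22856 in Etv3-/- (limma log2 fold change -0.23, adjusted p = 0.567). A gene total does not check the disruption, and genotypes are as labelled. All 11 genes that define dendritic cells here were detected, with a median log2 fold change of 0.39 and a summed level of 933265 to 1320835 in Etv3+/+ and 2138281 to 2910181 in Etv3-/-. Most of that sum was Cd74, H2-Ab1, H2-Aa and H2-Eb1, the MHC class II genes and their chaperone. Each was higher without overlap, as were 16.7% of all genes tested. None of them passed, with adjusted p in limma from 0.0542 for H2-Eb1 to 0.394 for Cd74. Ciita, the transactivator of class II genes, rose, from 6591 and 4682 to 13344, 13343 and 15160 (log2 fold change 1.33, limma adjusted p = 0.038; 1.08 to 1.57 with any 1 library left out, adjusted p = 0.0606 to 0.157). Itgax, which encodes CD11c, Flt3, Irf4, Batf3 and Dpp4 overlapped, with log2 fold changes from -0.47 for Irf4 to 0.39 for Itgax. Along GC content, 2 libraries stood apart from the others. Across 13609 genes, deviations from the gene mean correlated with transcript GC content at -0.42 (Spearman) in replicate 2 of Etv3+/+ and at 0.406 in replicate 3 of Etv3-/-, against -0.0978 to 0.0923 in the others.

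Surface and cytokine genes formed the largest role, with 7 members. The most abundant gene of the programme was Tmem123, which encodes a mucin-like surface protein also called porimin. Its level was 288513 and 364870 normalized counts in Etv3+/+ and 127655, 163290 and 114515 in Etv3-/-. The highest Etv3-/- library was thus far below the lowest Etv3+/+ one. Tmem123 (chromosome 9, 7764041 to 7794333) went from 326691 ± 53993 (SD, n = 2) to 135153 ± 25237 (SD, n = 3), with a log2 fold change of -1.28 (95% interval -1.96 to -0.60, adjusted p = 0.0876 in limma).

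Il21r had the lowest adjusted p of the programme. It encodes the receptor for IL-21, a cytokine made mainly by T cells. Its values were 10750 and 8393 in Etv3+/+ and 4089, 3920 and 4945 in Etv3-/-. The 3 Etv3-/- libraries lay close together, below both Etv3+/+ libraries, which themselves differed by more. The log2 fold change of Il21r (chromosome 7, 125603429 to 125633570) was -1.14 (95% interval -1.65 to -0.64, adjusted p = 0.0595 in limma). Over 18 alternative settings its adjusted p ran from 0.000172 to 0.2, and Il21r passed in 6 of them, always lower in Etv3-/-.

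The ligand and the receptor chain of the IL-15 system differed in their pattern. IL-15 is presented by dendritic cells on its own alpha chain to NK and CD8 T cells. Il15 was at 5930 and 8464 in Etv3+/+ and at 4769, 5162 and 3202 in Etv3-/-, without overlap. Its log2 fold change was -0.72 (95% interval -1.37 to -0.08, adjusted p = 0.236 in limma), and -0.47 without Etv3+/+ replicate 2. Il15ra overlapped between genotypes, at 5612 and 5540 against 6152, 4632 and 3601, with a log2 fold change of -0.25 (95% interval -0.85 to 0.35). The difference between the 2 genes was not tested. Of 6 genes for the shared receptor chains and their signalling, 0 passed (limma), with a median of 0.17. Jak1 was at 24224 in Etv3+/+ and 18754 in Etv3-/- on average, and Il2rg, the common gamma chain, at 16740 and 23566. Il2rb, the beta chain shared by the IL-2 and IL-15 receptors, had the most negative difference of the 6, at 2089 and 2078 in Etv3+/+ and 710, 1179 and 748 in Etv3-/- (log2 fold change -1.28, adjusted p = 0.102 in limma), without overlap.

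Cd200, the ligand of an inhibitory receptor on myeloid cells, was at 24299 and 32002 in Etv3+/+ and at 18542, 20398 and 14043 in Etv3-/-. The genotypes did not overlap, and the log2 fold change was -0.68 (95% interval -1.24 to -0.11, adjusted p = 0.212 in limma). Cd83, which stabilizes MHC class II and CD86 at the surface of mature cells, went the other way. It was at 168806 and 118792 in Etv3+/+ and at 186710, 185942 and 212641 in Etv3-/-, with a log2 fold change of 0.46 (95% interval -0.19 to 1.11, adjusted p = 0.431 in limma). It was 0.21 without Etv3+/+ replicate 2 and 0.71 without Etv3+/+ replicate 1, and with quantile scaling Cd83 no longer separated the genotypes. H2-M2, a non-classical class I gene, had the highest fitted difference, but it rested on part of the Etv3-/- libraries. It was at 5202 and 4861 in Etv3+/+ and at 4948, 9211 and 13715 in Etv3-/- (log2 fold change 0.77, 95% interval -0.14 to 1.67).

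Among the 5 genes of the cytoskeleton and cell shape, 3 were lower in Etv3-/- without overlap, against 19.3% of all genes tested. Fscn1 encodes fascin, the actin-bundling protein of mature dendrites and a classic marker of this state. Fscn1 (chromosome 5, 142960343 to 142973185) was at 117668 and 52927 in Etv3+/+ and at 23751, 35054 and 42728 in Etv3-/-. The Etv3+/+ libraries differed from each other by more than the lower of them differed from the highest Etv3-/- library. The log2 fold change of Fscn1 was -1.26 (95% interval -2.16 to -0.36, adjusted p = 0.164 in limma), and it ranged from -1.84 to -0.69 when single libraries were left out, the latter without Etv3+/+ replicate 1.

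Basp1, a membrane-bound protein of growing cell processes, was at 24012 and 33686 in Etv3+/+ and at 21305, 20877 and 18086 in Etv3-/-. Arc, an activity-regulated cytoskeletal protein that also acts in dendritic cell migration, was at 10922 and 7519 in Etv3+/+ and at 7279, 6643 and 6926 in Etv3-/-. Both lacked overlap by narrow margins, with log2 fold changes of -0.51 for Basp1 and -0.38 for Arc. These rested partly on single Etv3+/+ libraries. Basp1 was -0.26 without Etv3+/+ replicate 2, and Arc was -0.11 without Etv3+/+ replicate 1 and -0.65 without replicate 2. The other members of this role were abundant and overlapped. Cacnb3, the beta subunit of a voltage-gated calcium channel, was at 125426 and 93631 against 83473, 104945 and 140241, with a log2 fold change of -0.02 that was 0.02 with TMM and 0.05 with quantile scaling. Marcksl1, an actin-linked substrate of protein kinase C, was at 68345 and 47380 against 58603, 87718 and 89037 (log2 fold change 0.44, 95% interval -0.24 to 1.11).

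In the signalling role, 3 of 6 genes were lower in Etv3-/- without overlap, against 19.3% of all genes tested. Stat4, which carries the IL-12 and interferon signal, was at 31466 and 35948 in Etv3+/+ and at 18015, 19032 and 14298 in Etv3-/-. Both groups were tight, and the fitted level in Etv3-/- was 49.5% lower. The log2 fold change of Stat4 (chromosome 1, 51987148 to 52107189) was -0.99 (95% interval -1.48 to -0.49, adjusted p = 0.0787 in limma).

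Samsn1, an adaptor with SH3 and SAM domains, was at 45414 and 68766 in Etv3+/+ and at 33173, 31451 and 22733 in Etv3-/- (log2 fold change -0.96, 95% interval -1.60 to -0.32, adjusted p = 0.141 in limma). Spsb1, a SOCS-box adaptor of a ubiquitin ligase, was at 10945 and 9756 in Etv3+/+ and at 6046, 7568 and 7784 in Etv3-/- (log2 fold change -0.54). Each of these 3 genes kept a negative difference in all 18 alternatives. The other signalling genes overlapped. Adcy6, an adenylyl cyclase, ranged from 5405 to 7436 over the 5 libraries, and Gadd45b, a stress-inducible regulator of MAP kinases, from 6253 to 8654. Their log2 fold changes of 0.08 (95% interval -0.43 to 0.58) and -0.02 (95% interval -0.51 to 0.48) were the closest to 0 together with that of Cacnb3, and that of Gadd45b was 0.03 with TMM and 0.07 with quantile scaling. Stap2, an adaptor of tyrosine kinase signalling, was at 3582 to 5265 in Etv3+/+ and 2132 to 5224 in Etv3-/-.

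The promoters of the genes with the lowest p were looked at for the motif of the ETS family, to which Etv3 belongs. The motif searched was CCGGAA on both strands, in 300 bases of RefSeq promoter sequence (GRCm38.p6), from 250 before to 50 after the gene's start. Of the members, 23 had an entry, with 30 promoters between them, and 2 of these genes, Il15ra and Nudt17, held the motif. That is 8.7% of the 23, against 16.7% of all genes with an entry. Il21r (chr7:125603179-125603478, plus strand) and both starts of Stat4 (chr1:51986898-51987197 and chr1:52007990-52008289, plus strand) are shown because these genes had the lowest p, and Il15ra (chr2:11705043-11705342, plus strand) and Nudt17 (chr3:96708511-96708810, minus strand) because they hold the motif. Capitals mark CCGGAA in Il15ra and Nudt17, and the shorter core GGAA on either strand in Stat4. The Il21r window holds neither and is in lower case throughout.
Il21r: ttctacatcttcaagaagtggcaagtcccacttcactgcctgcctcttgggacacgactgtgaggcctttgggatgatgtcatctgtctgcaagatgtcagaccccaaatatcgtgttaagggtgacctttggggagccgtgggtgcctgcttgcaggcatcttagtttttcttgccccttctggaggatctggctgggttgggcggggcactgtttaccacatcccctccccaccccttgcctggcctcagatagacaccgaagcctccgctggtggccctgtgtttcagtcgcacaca
Stat4, first start: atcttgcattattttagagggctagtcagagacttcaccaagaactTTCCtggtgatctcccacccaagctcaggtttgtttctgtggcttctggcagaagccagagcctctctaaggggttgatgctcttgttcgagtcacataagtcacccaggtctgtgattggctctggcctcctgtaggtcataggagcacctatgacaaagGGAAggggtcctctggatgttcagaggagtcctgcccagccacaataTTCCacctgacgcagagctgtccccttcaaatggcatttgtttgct
Stat4, second start: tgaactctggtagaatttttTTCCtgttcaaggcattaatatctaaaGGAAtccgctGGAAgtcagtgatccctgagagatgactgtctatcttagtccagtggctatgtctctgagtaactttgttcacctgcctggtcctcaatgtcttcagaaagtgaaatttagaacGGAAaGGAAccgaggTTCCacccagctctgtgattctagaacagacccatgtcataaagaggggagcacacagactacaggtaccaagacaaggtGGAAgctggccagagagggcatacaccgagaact
Il15ra: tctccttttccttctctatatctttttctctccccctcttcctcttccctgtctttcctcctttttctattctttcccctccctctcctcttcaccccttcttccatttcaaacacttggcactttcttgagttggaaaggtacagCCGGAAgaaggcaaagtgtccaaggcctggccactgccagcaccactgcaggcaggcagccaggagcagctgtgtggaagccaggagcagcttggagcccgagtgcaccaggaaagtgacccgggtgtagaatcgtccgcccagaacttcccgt
Nudt17: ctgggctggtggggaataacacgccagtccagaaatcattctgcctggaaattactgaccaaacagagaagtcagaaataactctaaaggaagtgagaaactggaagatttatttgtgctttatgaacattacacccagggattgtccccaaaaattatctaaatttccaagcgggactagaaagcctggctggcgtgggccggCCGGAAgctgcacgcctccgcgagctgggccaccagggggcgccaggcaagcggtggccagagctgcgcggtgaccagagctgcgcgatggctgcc
The match in Il15ra starts 104 bases before the gene's start and that in Nudt17 46 bases before it. Stat4 holds the core 3 times at the first start and 7 times at the second. The median is 4.5 over the 30 promoters of members and 3 over all 32851 promoters. A match describes the letters and is not a binding site, and a missing match says nothing about binding outside the window. Neither Il15ra nor Nudt17 was separated between genotypes.

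Among genes of membrane traffic and transport, 3 of 5 tested members were lower in Etv3-/- without overlap, against 19.3% of all genes tested. Slco5a1, a member of the organic anion transporter family, had the most negative difference of the programme. It was at 2089 and 1766 in Etv3+/+ and at 253, 712 and 863 in Etv3-/-. One Etv3-/- library, replicate 1, was far below the other 2. The log2 fold change was -1.83 (95% interval -3.04 to -0.63, adjusted p = 0.139 in limma), and without that library it was -1.29. Per kilobase of exon, Slco5a1 was also the least abundant tested gene, at 86.5 normalized counts over all libraries, where Tmem123 was at 68115 and Cd83 at 67876.

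Laptm4b, a lysosomal membrane protein, was at 1723 and 2055 in Etv3+/+ and at 706, 941 and 774 in Etv3-/-. Neither genotype spread widely, and the log2 fold change was -1.23 (95% interval -1.88 to -0.59, adjusted p = 0.0841 in limma). Mreg, melanoregulin, which acts in organelle transport, was at 10833 and 10583 in Etv3+/+ and at 7080, 6638 and 7981 in Etv3-/- (log2 fold change -0.57, 95% interval -1.01 to -0.13). Tbc1d4, a GTPase-activating protein for Rab proteins, was at 54288 and 63524 against 41188, 55264 and 50364. Anxa3, an annexin that binds membranes with calcium, was at 49912 and 56220 against 36649, 51495 and 49260. These 2 overlapped, with log2 fold changes of -0.27 and -0.23. Lamp3, the lysosomal protein DC-LAMP and a marker of mature dendritic cells in human tissue, was next to absent, with 3 reads in all 5 libraries together, and was not tested.

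Of 3 metabolic genes, Gyg was lower in Etv3-/- without overlap, as were 19.3% of all genes tested. It encodes glycogenin, the protein primer of glycogen synthesis. Gyg (chromosome 3, 20122084 to 20155317) was at 72010 and 72700 in Etv3+/+ and at 45585, 39179 and 46937 in Etv3-/-. The Etv3+/+ libraries were almost equal and every Etv3-/- library was well below them. The log2 fold change was -0.73 (95% interval -1.22 to -0.23, adjusted p = 0.15 in limma), and it stayed between -0.84 and -0.65 in all 18 alternatives. Nudt17, a Nudix hydrolase, was at 13950 to 20140 in Etv3+/+ and 6545 to 14658 in Etv3-/-. Eno2, an enolase of glycolysis, was at 789 to 952 and at 396 to 1175. Nudt17 lies across from Pias3 on the opposite strand, and its reads cannot be told from those of Pias3 if strand was not used in counting.

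Of the remaining 5 genes, 3 were lower in Etv3-/- without overlap, against 19.3% of all genes tested. Clu, the secreted chaperone clusterin, was at 31379 and 39154 in Etv3+/+ and at 14421, 21883 and 29379 in Etv3-/-. The last of these came close to the lower Etv3+/+ library, and the log2 fold change was -0.74 (95% interval -1.46 to -0.01, adjusted p = 0.271 in limma), and -0.47 without Etv3-/- replicate 1. Bcl2l14, a member of the BCL2 family, was at 2365 and 2000 against 1316, 890 and 1356 (log2 fold change -0.90, 95% interval -1.56 to -0.23). Ankrd33b, an ankyrin repeat protein, was at 4625 and 4590 against 3313, 2904 and 2824 (log2 fold change -0.62, 95% interval -1.09 to -0.15). Both were separated, with little spread within a genotype for Ankrd33b. Bcl2l14 spread more, and its difference ran from -1.02 to -0.70 when single libraries were left out. Zmynd15, a zinc finger repressor, was at 4978 to 7405 in Etv3+/+ and 2348 to 5423 in Etv3-/-. It overlaps Cxcl16 on the opposite strand, whose mean was 62687 in Etv3+/+ and 39181 in Etv3-/-, so the value of Zmynd15 is uncertain. Apol7c, of the apolipoprotein L family, spread most among the Etv3-/- libraries, at 5574, 19496 and 27111, against 11927 and 9745 in Etv3+/+. Its log2 fold change of 0.41 (95% interval -0.96 to 1.78) became -0.05 without Etv3-/- replicate 3.

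**Figure D2:**
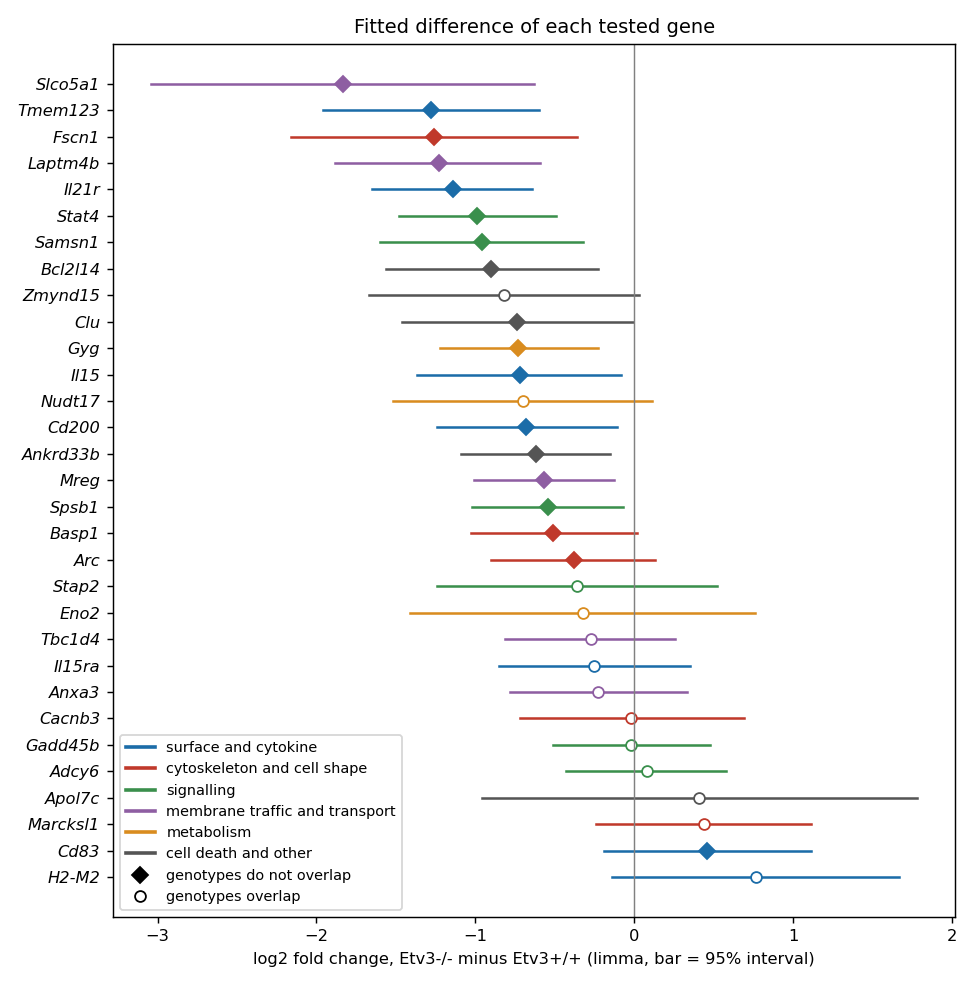
Fitted log2 fold change of each tested gene, Etv3-/- minus Etv3+/+, with its 95% interval from limma, ordered from -1.83 for Slco5a1 to 0.77 for H2-M2 and coloured by role. Filled diamonds mark the 18 genes whose genotypes do not overlap. Genes of every role lie on the negative side.

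Which Etv3-/- library was lowest differed between members. The lowest of the 3 Etv3-/- values was in replicate 1 for 15 genes, in replicate 2 for 8 and in replicate 3 for 8. The highest was in replicate 3 for 18 genes. The 8 genes lowest in replicate 3 were Tmem123, Stat4, Samsn1, Cd200, Il15, Il15ra, Basp1 and Ankrd33b, with a median transcript GC content of 46.5%, the 8 lowest in replicate 2 had a median of 53.3%, and the 15 lowest in replicate 1, among them Fscn1 and Slco5a1, one of 54.6%. Across the 31 genes, the difference of Etv3-/- replicate 3 minus replicate 2 had a Spearman correlation of 0.46 with GC content, against 0.39 over all genes tested. These were 0.30 and 0.27 for replicate 3 minus replicate 1, and 0.03 and -0.15 for replicate 2 minus replicate 1. For Etv3+/+ replicate 1 minus replicate 2 these values were 0.61 and 0.40. The fitted log2 fold change between genotypes itself correlated with GC content, at 0.28 over the 31 genes and 0.29 over all genes tested. Genes within a library share its depth and base composition, so these are descriptions.

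Corrected for GC content and length, the same comparison gave 6 of 31 members lower and 0 higher at an adjusted p of 0.05 in limma, where 0.985% of all genes passed lower and 1.43% higher. The 6 were Il21r (-1.42, adjusted p = 0.00732), Stat4 (-0.87, adjusted p = 0.0355), Gyg (-0.83, adjusted p = 0.0415), Tmem123 (-0.99, adjusted p = 0.0422), Fscn1 (-1.43, adjusted p = 0.0424) and Laptm4b (-1.41, adjusted p = 0.0449). The median was -0.68. Without Etv3+/+ replicate 2 and Etv3-/- replicate 3, the libraries with the GC trend, the median was -0.65. The remaining values of 23 genes were lower without overlap in that setting. Fewer values are left to overlap there, and the share over all genes was not computed, so this count cannot be set against the 17. In that setting the log2 fold change shrank for Cd200 (-0.32), Samsn1 (-0.49), Il15 (-0.26), Basp1 (-0.19) and Cd83 (0.14). It also shrank for Tmem123, Stat4, Laptm4b, Marcksl1, H2-M2, Il15ra, Ankrd33b, Tbc1d4 and Anxa3. It was further from 0 for Fscn1 (-2.03), Arc (-0.65), Zmynd15 (-1.44), Nudt17 (-1.22), Stap2 (-0.95) and Eno2 (-0.84). The same held for Slco5a1, Il21r, Bcl2l14, Spsb1, Mreg, Clu, Gyg, Cacnb3 and Gadd45b. Adcy6 and Apol7c changed sign. DESeq2 on whole reads called 8 lower (3.94% of all genes) and 0 higher (4.66%). Those 8 included the same 6, with Samsn1 and Slco5a1.

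**Figure D3:**
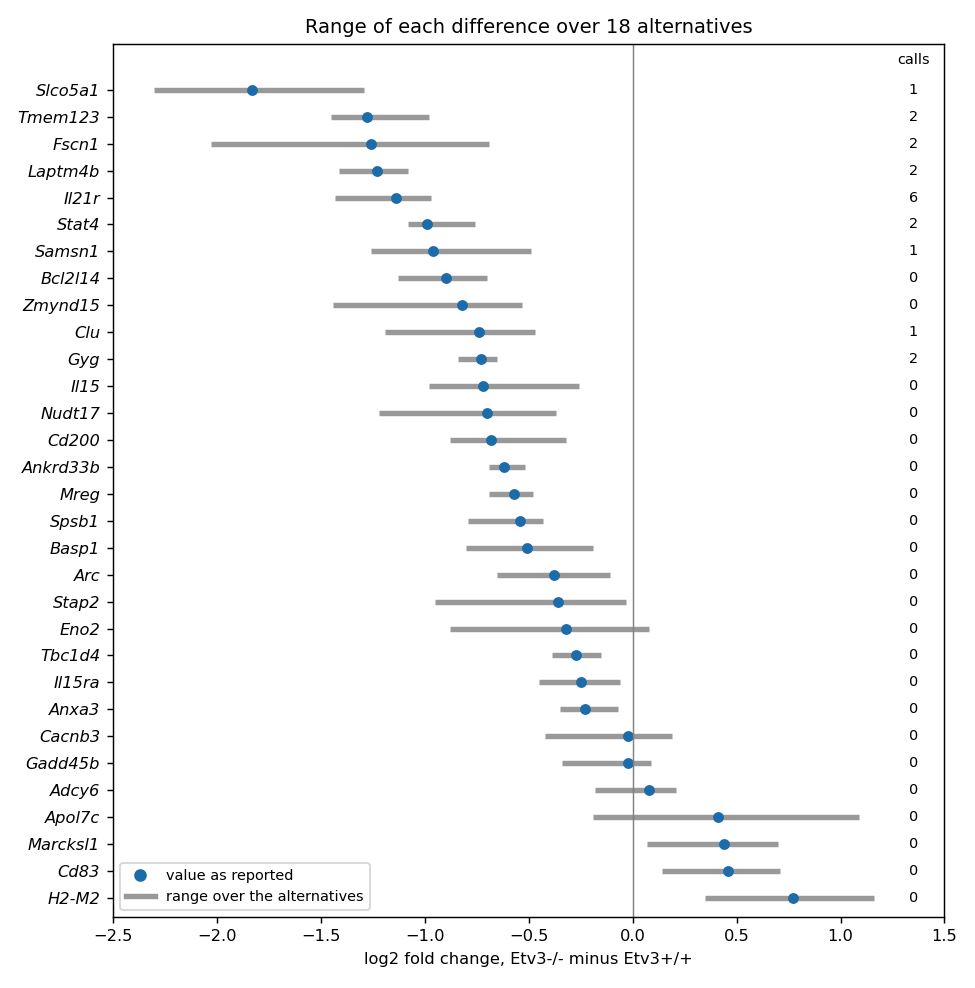
Range of the fitted log2 fold change of each tested gene over 18 alternative settings (grey bars), with the value as reported (blue points) and, at the right, the number of alternatives in which the gene passed an adjusted p of 0.05. Il21r passed in 6 and the next most often called genes in 2. The bars of Cacnb3, Gadd45b, Adcy6, Apol7c and Eno2 cross 0.

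Lists of other genes of mature dendritic cells had medians nearer to 0 or above it. Of 5 tested chemokine and receptor genes, 0 passed (limma), with a median of -0.07. Ccr7, the receptor that guides mature cells to the lymph node, was at 282725 and 246321 in Etv3+/+ and at 254858, 213571 and 290394 in Etv3-/-, a log2 fold change of -0.07 (95% interval -0.76 to 0.61). Ccl22, a chemokine of mature cells, was at 368881 and 414131 in Etv3+/+ and 444996, 600297 and 677062 in Etv3-/- (log2 fold change 0.53, 95% interval -0.28 to 1.34). Of 14 NF-kB genes 0 passed (limma), with 8 fitted differences below 0 and a median of -0.05. Of these 14, 6 were higher without overlap (16.7% of all genes tested) and 3 lower (19.3%). Nfkbia, the inhibitor induced by NF-kB, averaged 76923 in Etv3+/+ and 106229 in Etv3-/-, and Traf1, a signalling adaptor, 37566 and 49471. The most positive difference was that of Tnfaip3, at 13385 and 13289 against 27309, 19625 and 20745, without overlap (log2 fold change 0.74, adjusted p = 0.148 in limma). The most negative differences of this list were those of Rel, an NF-kB subunit, at 16150 and 25940 against 10353, 11895 and 8722 (a 50% lower fitted level, adjusted p = 0.121 in limma), and Birc2, an inhibitor of apoptosis, at 30049 and 43049 against 14910, 26075 and 16592 (48.2% lower, adjusted p = 0.168 in limma). Both lacked overlap.

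Of 9 tested costimulatory genes 1 rose (0.876% of all genes tested) and 0 fell (0.319%), with a median of 0.47. The gene that rose was Cd70, a TNF family ligand, at 374 and 345 in Etv3+/+ and 1539, 1656 and 1367 in Etv3-/- (log2 fold change 2.08, limma adjusted p = 0.0249). Of the 9, 5 were higher without overlap (16.7% of all genes tested) and 0 lower (19.3%). At an unadjusted p under 0.05 in limma, 4 were higher (8.02%) and 0 lower (9.93%). Of 11 tested regulatory genes 1 fell (0.319% of all genes tested) and 0 rose (0.876%), with a median of 0.02. The gene that fell was the death receptor gene Fas, from 8515 and 11332 to 1309, 1659 and 1289 (log2 fold change -2.80, limma adjusted p = 0.00765). Of 11 motility genes 1 rose (0.876% of all genes tested) and 0 fell (0.319%), with a median of 0.09. The gene that rose was the GTPase gene Rac2, from 16149 and 11462 to 34457, 29349 and 36602 (log2 fold change 1.29, limma adjusted p = 0.0479). Of 16 tested antigen capture genes, which immature cells express, 1 rose (0.876% of all genes tested) and 0 fell (0.319%), with a median of 0.90. The gene was Ccr1, a chemokine receptor, at 1656 and 2138 in Etv3+/+ and 5024, 5004 and 4798 in Etv3-/- (log2 fold change 1.39, limma adjusted p = 0.0323). With any 1 library left out, the log2 fold changes stayed at 2.01 to 2.15 for Cd70, 1.05 to 1.54 for Rac2 and 1.21 to 1.58 for Ccr1, but none of these genes passed (adjusted p = 0.0645 to 0.126, 0.0701 to 0.188 and 0.0584 to 0.148 in limma). Such omissions left few calls among all genes, 0 to 7 lower and 0 to 73 higher. Fas, at -3.01 to -2.59, passed in 3 of 5 such omissions (adjusted p = 0.0201 to 0.0718 in limma), the exceptions being those of Etv3-/- replicate 1 or 2. The difference between these lists and the programme was not tested, and the lists share 0 genes with it.

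**Figure D4:**
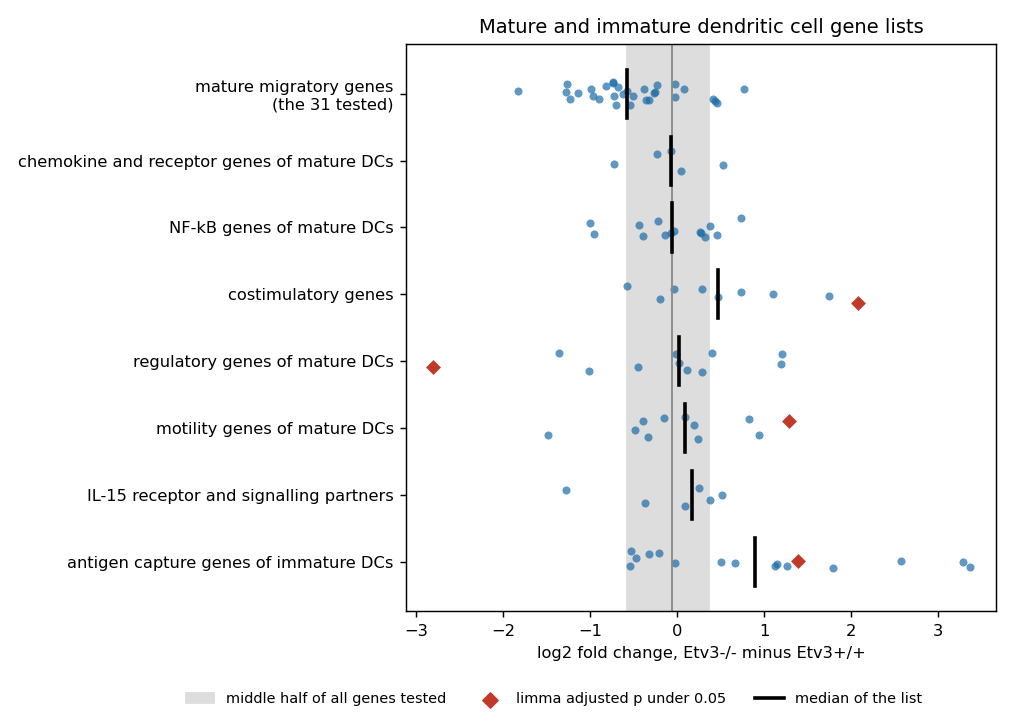
Log2 fold change, Etv3-/- minus Etv3+/+, of the 31 tested genes of the programme and of 7 other lists, 1 point per gene, with the median of each list as a black bar and genes past an adjusted p of 0.05 as red diamonds. The grey band spans the middle of all genes tested, from the lower quartile of -0.58 to the upper quartile of 0.37. The programme's median of -0.57 lies at the lower edge of the band. Those of the antigen capture genes, 0.90, and of the costimulatory genes, 0.47, lie above it.

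Markers of some other cell types also moved with genotype. The summed level of 14 macrophage and monocyte genes was 10352 to 10582 in Etv3+/+ and 21224 to 27235 in Etv3-/-, with Timd4 at 0 in all libraries. Of the 13 tested, 3 were called higher (C1qa, C1qb and C1qc), against 0.876% of all genes tested. The fitted difference was above 0 for 10 of the 13 and below 0 for 3, Ly6c2 (-0.64), Vcam1 (-0.50) and Apoe (-0.40). With any 1 library left out, C1qa was at 2.91 to 3.68 and C1qb at 1.78 to 2.34, without passing (adjusted p = 0.0521 to 0.127 and 0.104 to 0.118 in limma), and C1qc, at 2.31 to 2.88, passed in 2 of 5 omissions, those of an Etv3+/+ library. For 10 B cell genes the sums were 1922 to 2575 and 3772 to 6418, with 0 of 9 tested genes called (limma). The fitted difference was above 0 for 7 of the 9 and below 0 for 2, Ms4a1 (-1.01) and Ebf1 (-1.37). For 10 genes of NK and innate lymphoid cells, which also express Stat4 and Il21r, the sums were 35487 to 67497 in Etv3+/+ and 17584 to 33511 in Etv3-/-, with 0 of 8 called. Most of that sum was Il7r, at 39426 and 15868 on average, and Ncr1, a defining NK gene, was at 0 in all libraries. The granzyme genes were lower without overlap, Gzma at 4593 and 4982 against 128, 2058 and 1495 (log2 fold change -2.70, adjusted p = 0.236 in limma) and Gzmb at 1871 and 2131 against 82.8, 563 and 565 (-2.74, adjusted p = 0.148 in limma). Of the 8 tested genes of this list, 5 had a fitted difference below 0 and 3 above. Klrk1 was among the latter, at 4712 in Etv3+/+ and 6008 in Etv3-/- on average (log2 fold change 0.30). The sums for T cells (4487 to 4941 and 3745 to 5368), neutrophils (44579 to 52264 and 12360 to 69948) and mast cells or basophils (11359 to 19792 and 12110 to 18246) overlapped, and those of 7 erythroid genes were at most 11.2. The part of these cells in the lower levels of the programme was not tested.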

How the data were processed

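RNA-seq of 5 libraries was deposited by the authors as normalized counts, a signal made of read counts scaled by 1 factor per library. Tools named in the submitters' processing notes are STAR 2.7.3a, Trimmomatic 0.36, Subread 1.6.3 with featureCounts, and DESeq2 1.26.0, on mm10. Their roles, the annotation, strand setting and filters are not given. Whole reads were recovered from the step of each library (0.856 to 1.24), 100% of values lying within 0.1 of a whole number. The libraries carry no molecular tags, so PCR copies count as reads.

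The test was limma 3.58.1 in R 4.3.3 (lmFit, eBayes with trend) on log2(normalized count + 1), with genotype alone, two-sided, Benjamini-Hochberg adjusted over the 13813 genes that reached 10 in 2 or more libraries, at a threshold of 0.05. This scale understates changes of low genes. An exact permutation test of these 10 splits cannot go below p = 0.1. Members and lists were chosen with earlier results of these data known. Values by library are given for members past the threshold, without overlap or among the 8 most abundant; of other lists, genes past the threshold or else the 2 most abundant. Other genes and values, and the promoters with the motif, were chosen after seeing the data. Promoters were otherwise sought for the 3 members with the lowest p, Il21r, Stat4 and Laptm4b; Laptm4b had no entry. Alternatives covered pseudocounts (0.5 and 5), filters, TMM and quantile scaling, trend=FALSE, the replicate block, a GC and length correction (local regression, span 0.3; GENCODE M21; 98.5% of tested genes), edgeR 4.0.16, DESeq2 1.42.0 and left-out libraries. Tested on simulated data (5 runs of 200 changed genes), limma made 136 calls on average, 8.6 of them false.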

Additional observations from a re-analysis of the deposited data

How the results depend on the processing

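The count of genes of the programme called lower was 0 in limma and stayed 0 with a pseudocount of 0.5, without a filter, with TMM or quantile scaling, with trend=FALSE and with edgeR. It was also 0 in each omission of 1 library (0 to 0), where at most 7 of all genes were called lower, so that this count says nothing about stability. It was 1, Il21r, with a pseudocount of 5, with a filter on a mean of 50 and with the replicate block. It was 6 with the GC and length correction, 2 (Il21r and Clu) with that correction and the replicate block, and 8 with DESeq2. None of the 18 alternatives called a gene of the programme higher. The median log2 fold change stayed between -0.68 and -0.47 in all 18 alternatives, and was -0.61 with the replicate block. The count with all Etv3-/- values lower was 17 (19.3% of all genes tested), and 16 to 23 over the alternatives that change the values. Shares over all genes were not computed for those alternatives. The count with all values higher was 1, became 0 with quantile scaling, and ran from 1 to 4 when single libraries were left out, with 4 without Etv3+/+ replicate 1 or Etv3-/- replicate 1. Omissions leave fewer values to overlap. The replicate number gave no sign of pairing: deviations of libraries numbered 1 and 2 correlated at -0.034 and 0.039 between genotypes, and number 3 occurs in Etv3-/- alone.

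Of 558 single-gene values under alternatives, 516 kept direction and side of the threshold, 19 newly passed and 23 changed sign, the latter in 5 genes. Cacnb3 was 0.02 with TMM, 0.05 with quantile scaling, 0.07 with edgeR, 0.03 with DESeq2, 0.19 without Etv3+/+ replicate 1 and 0.16 without Etv3-/- replicate 1, in a range of -0.23 to 0.19 over the single omissions. Gadd45b was 0.03, 0.07, 0.06 and 0.03 with the first 4 of these, 0.04 without Etv3+/+ replicate 1 and 0.09 without Etv3-/- replicate 2 (range -0.14 to 0.09). Adcy6 was -0.05 with the replicate block, -0.07 with the GC and length correction, -0.13 with both, -0.05 without Etv3+/+ replicate 2 or Etv3-/- replicate 3 (range -0.05 to 0.21), and -0.18 without both libraries of the strongest GC trend. Apol7c was -0.05 with the replicate block, -0.12 with it and the correction, -0.05 without Etv3-/- replicate 3 (range -0.05 to 1.09) and -0.19 without both GC libraries. Eno2 was 0.08 without Etv3-/- replicate 1 (range -0.70 to 0.08). The cause was not tested. The omission of both GC libraries and the counts of values without overlap were chosen after seeing the data.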
